A study of Mus musculus with 4 samples.

Results

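Expression of the axon guidance ligands and receptors was examined in the cerebellum of *Kdm3b*+/- mice and their WT littermates. The genes are the ephrins and Eph receptors, the semaphorins of classes 3 to 7 with the plexins and neuropilins, the Slit and Robo genes, and the netrins with Dcc, neogenin and the Unc5 receptors. They were chosen by gene symbol alone, as the symbols that start with Epha, Ephb, Efna, Efnb, Plxn, Robo or Unc5, Sema3 to Sema7 followed by a letter, and 11 single symbols (*Slit1*, *Slit2*, *Slit3*, *Ntn1*, *Ntn4*, *Ntng1*, *Ntng2*, *Dcc*, *Neo1*, *Nrp1* and *Nrp2*), which gave 73 of the 24532 gene identifiers of the study. Of these, 3 share only the letters of the rule and are not guidance ligands or receptors (*Unc50*, *Unc5cl* and the antisense transcript *Plxna4os1*), so 70 guidance genes are described. Kdm3b is a demethylase of histone H3 lysine 9.

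Bulk RNA from the vermis, enriched for the granule cell layer (GCE tissue), was sequenced in 2 WT and 2 *Kdm3b*+/- adult male mice, 1 library per mouse. The sample labels name the tissue only as cerebellum, and the study's methods name it as GCE tissue dissected by hand from slices. The *Kdm3b*+/- mice carry 1 allele with the gene-trap vector pGT0lxf in every cell of the body, on a line backcrossed to C57Bl/6N and then crossed to C57Bl/6J, so neither the time nor the cell type of the reduction is restricted. Values are in TPM, a level scaled to gene length and to the library, and differences are log2 fold changes (*Kdm3b*+/- over WT) of TPM + 1, which understate the change of genes with low TPM.

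Guidance ligands are secreted or membrane-bound proteins that attract or repel growing axons and migrating neurons, and their receptors act mainly through small GTPases and the actin cytoskeleton. Ephrins bind Eph receptors, semaphorins bind plexins with or without a neuropilin, Slits bind Robo receptors, and netrins bind Dcc, neogenin and the Unc5 proteins. In the cerebellum several of them are known for granule cell migration and layering during development, and many stay expressed in the adult brain, where some act at synapses, in glia and in blood vessels.

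The libraries held 4.92 and 5.74 gigabases of aligned sequence in WT mice 1 and 2, and 5.69 and 6.69 gigabases in *Kdm3b*+/- mice 1 and 2, estimated from coverage over FPKM. *Kdm3b* had a TPM of 9.10 and 11.0 in WT and 8.30 and 7.90 in *Kdm3b*+/- mice. The log2 fold change of -0.27 ± 0.17 (SE, n = 2 per group) did not pass the test (adjusted p = 0.424 by limma). For the protein, the study reported a significant reduction by immunoblot in the vermis and flocculus of the mutants. The 12 granule cell markers had a summed TPM of 4944 to 5955, and those of the choroid plexus 1.36 to 4.02. The 15 Purkinje cell markers summed to 1814 in WT mouse 1 against 833 to 1025 in the other libraries. All 14 tested Purkinje cell markers had a lower mean log2 level in *Kdm3b*+/- mice, beside 8250 of 13652 genes. Of the 14, 7 were lower without overlap and 6 at an unadjusted p under 0.05 by limma, against 32.0% and 11.5% of all genes. With a median of -0.48, 0 of them were called. In the other lists, 2 of the 12 markers of astrocytes and Bergmann glia were called higher. Of these 12, 7 had a lower and 5 a higher mean. Lower calls were 1 of 10 oligodendrocyte markers, with 5 lower and 5 higher means, and 1 of 7 tested meningeal fibroblast markers. Of those 7, 5 had a lower and 2 a higher mean. Over all genes, 63 of 13652 (0.461%) were called in either direction. The 12 markers of molecular layer interneurons and Golgi cells summed to 523 and 258 in WT against 324 and 308 in *Kdm3b*+/- mice. The 10 oligodendrocyte markers summed to 15192 to 18156, and the 8 markers of meningeal fibroblasts to 68.7 and 61.8 in WT against 38.7 and 41.3 in *Kdm3b*+/- mice. In the same order, the markers of astrocytes and Bergmann glia summed to 1022, 998, 1010 and 1114, of oligodendrocyte precursors to 58.2, 68.5, 46.0 and 68.9, of microglia to 361, 365, 379 and 399, of endothelial and mural cells to 351, 312, 333 and 334, and the 2 of unipolar brush cells to 13.9, 29.2, 26.4 and 21.7. The part of other cell types in the values that follow was not tested.

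Guidance genes were expressed at low to moderate levels in the adult tissue. Of the 73 genes, 55 had a mean TPM of at least 1 and were tested, and 20 had a mean of at least 10. The 70 guidance genes had a summed TPM of 539 and 684 in WT and 480 and 557 in *Kdm3b*+/- mice, so the genotypes overlapped. By level the highest guidance genes were *Sema4f*, *Efna1*, *Ephb1* and *Ntn4*, while *Unc50*, a Golgi protein that shares only its letters with the netrin receptors, stood above them at 181 to 230 TPM. The 18 genes under the limit had mean TPM values of 0.00946 to 0.942. Among them were *Slit1* and *Slit2*, *Robo2* and *Robo3*, 4 of the 7 class 3 semaphorins (*Sema3b*, *Sema3d*, *Sema3e* and *Sema3g*), and *Dcc*, the classical attractive netrin receptor, which had 0.386, 0.551, 0.609 and 0.676 TPM in the order given above. *Slit1* and *Sema3g* were listed at 0 in at least 1 library.

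In 3 of the 9 families a single gene held most of the summed TPM. *Ephb1* held 73.6% to 81.0% of the EphB sum over the libraries, *Ntn4* 75.7% to 88.7% of the netrin sum and *Slit3* 62.3% to 72.7% of the Slit and Robo sum. *Efna1* held 39.1% to 47.2% of the ephrin sum. The leading shares of the remaining families were 28.3% to 35.4% for *Epha7* among the EphA receptors, 29.1% to 34.8% for *Sema4f* among the class 4 to 7 semaphorins, 24.4% to 37.9% for *Plxnb2* among the plexins and neuropilins, 26.2% to 39.9% for *Unc5b* among the netrin receptors and 25.8% to 38.3% for *Sema3c* among the class 3 semaphorins.

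**Figure D1:**
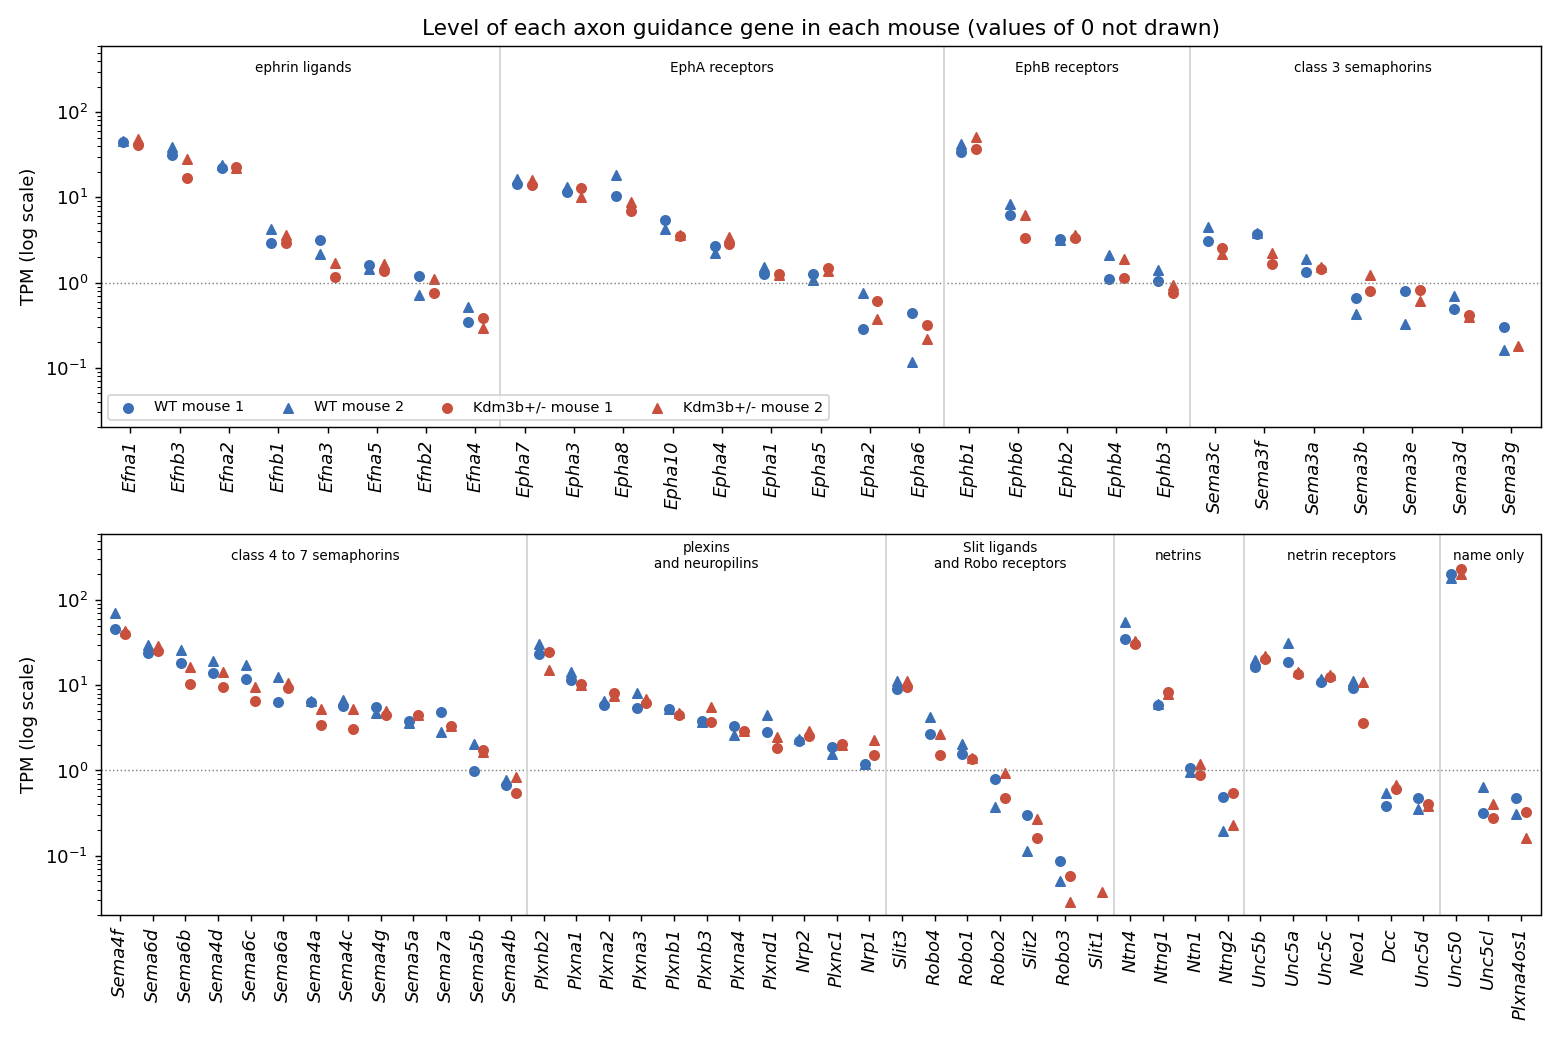
TPM on a log axis of the 73 genes in the 4 mice (blue, WT; red, *Kdm3b*+/-; circles, mouse 1; triangles, mouse 2), grouped by family and ordered by mean level, with a dotted line at 1 TPM and "name only" for the 3 genes that share only letters. *Sema4f* (40.4 to 70.5 TPM) and *Efna1* (41.3 to 47.9 TPM) are at the top of their families, and 20 genes have a mean of at least 10 TPM.

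No guidance gene passed the test for a genotype difference by limma on TPM. The study's own test on counts listed *Epha8* among its genes with lower expression. A gene was called where its adjusted p was below 0.05 and the genotypes differed by more than 1.2-fold; 0 of the 55 tested genes were called, beside 63 of 13652 genes (0.461%). At an unadjusted p under 0.05, 10 of the 55 (18.2%) had lower and 1 (1.82%) had higher levels in *Kdm3b*+/- mice, against 11.5% and 5.47% of all genes. The groups did not overlap in 21 of the 55 with lower values (38.2%) and 12 with higher values (21.8%), *Unc50* among the 12, against 32.0% and 19.2% of all genes. The mean was lower in 36 and higher in 19 of the 55, beside 8250 and 5402 of the 13652 genes. The median log2 fold change of the guidance genes was -0.09 (range -0.77 to 0.40), near the -0.07 of all genes.

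The count of 10 depended on single mice. Without WT mouse 2 it was 3 (5.45%, against 7.5% of all genes in that fit), so the share of the guidance genes was then below that of all genes. Without *Kdm3b*+/- mouse 1 it was 4 (7.27% against 4.41%), without WT mouse 1 it was 13 (23.6% against 17.5%) and without *Kdm3b*+/- mouse 2 it was 14 (25.5% against 10.3%). WT mouse 2 was above WT mouse 1 in 39 of the 55 genes (70.9%) and in 9 of the 10, beside 58.6% of all genes. *Kdm3b*+/- mouse 1 was below *Kdm3b*+/- mouse 2 in 43 (78.2%) and also in 9 of the 10, beside 58.6% of all genes. In 33 genes (60.0%, against 64.0% of all genes) the gap between the mice of 1 genotype was larger than the gap between the genotype means. In bulk tissue, fewer cells of a type and less RNA per cell cannot be told apart.

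**Figure D2:**
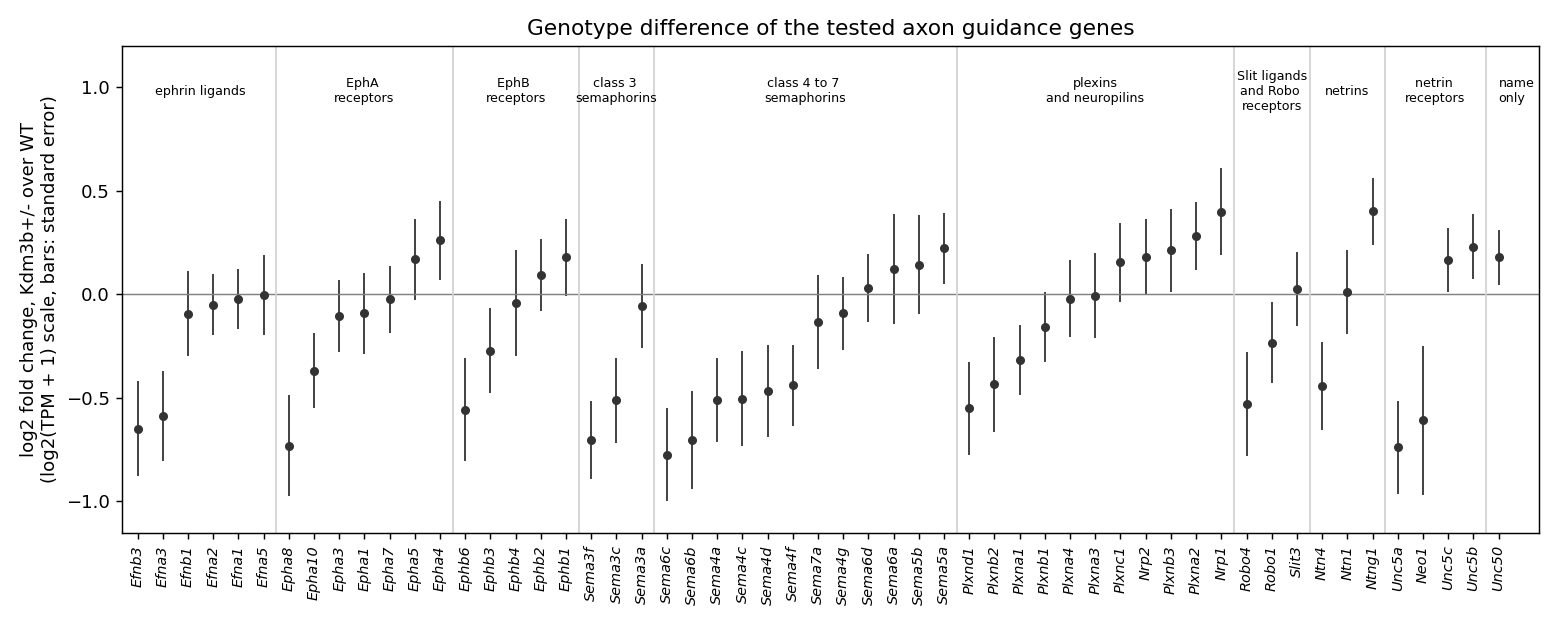
Log2 fold change (*Kdm3b*+/- over WT, log2 of TPM + 1) with SE of each tested gene by family (n = 2 mice per genotype), where the last column is *Unc50*. The values run from -0.77 for *Sema6c* to 0.40 for *Ntng1*, and no gene passed the adjusted threshold.

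As measured, all 6 tested ephrins had a lower mean log2 level in *Kdm3b*+/- mice, beside 8250 of 13652 genes. Of the 6, 2 were lower without overlap, against 32.0% of all genes. Their median difference was -0.07 on the log2 scale. After a correction of every library for length and GC content, *Efna2* (0.050), *Efnb1* (0.15) and *Efna5* (0.10) had higher means, and the other tested ephrins stayed lower. *Efnb3*, a transmembrane ephrin known as a midline barrier to axons (chr11:69554092-69560237), had 31.5 and 38.9 TPM in WT and 17.0 and 28.3 in *Kdm3b*+/- mice. Every *Kdm3b*+/- value was below every WT value, the log2 fold change was -0.65 ± 0.23 (SE, n = 2 per group) and the adjusted p was 0.222. *Efna3*, a GPI-anchored ephrin (chr3:89314951-89322879), had 3.13 and 2.15 TPM against 1.15 and 1.68, with a log2 fold change of -0.59 ± 0.22 and an adjusted p of 0.240. The more abundant GPI-anchored ephrins lay closer, *Efna1* at 44.2 and 46.1 against 41.3 and 47.9 TPM and *Efna2* at 22.3 and 23.8 against 22.6 and 21.9 TPM. The groups overlapped in *Efna1*, and the sign of its difference depended on the scaling.

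The 9 EphA receptors, of which 7 were tested and which bind mainly the GPI-anchored ephrins, had a summed TPM of 47.7 and 57.9 in WT and 43.9 and 45.5 in *Kdm3b*+/- mice. *Epha8* (chr4:136929419-136956816) had 10.4 and 18.1 against 6.95 and 8.95 TPM. The groups did not overlap, WT mouse 2 stood well above the other 3 mice, and the log2 fold change of -0.73 ± 0.25 had an adjusted p of 0.212 by limma. The study's own test on counts listed *Epha8* as a gene with lower expression in *Kdm3b*+/- mice. *Epha7*, the most abundant, had 14.4 and 16.4 against 14.1 and 16.1 TPM, and *Epha3* 11.5 and 13.3 against 12.8 and 10.2 TPM. The sign of the difference of these last genes changed between scalings. *Epha4* and *Epha5* were higher without overlap at 2.24 to 3.46 TPM and 1.06 to 1.49 TPM, neither with an unadjusted p under 0.05. *Epha1* has a gene model that overlaps 1727 bases of *Zyx* on the other strand, whose mean TPM was 108, so its 1.24 to 1.54 TPM may hold reads of *Zyx*.

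Of the 5 EphB receptors, none had an unadjusted p under 0.05. *Ephb1* had 34.6 and 42.1 TPM in WT and 36.7 and 51.1 in *Kdm3b*+/- mice, and the groups overlapped. *Ephb6*, a receptor that lacks kinase activity, had 6.29 and 8.33 against 3.36 and 6.22 TPM, with *Kdm3b*+/- mouse 1 far below the others and an adjusted p of 0.301. *Ephb2* lay between 3.17 and 3.60 TPM in the 4 libraries.

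The class 3 semaphorins are secreted, and 3 of 7 were tested. As measured, all 3 had a lower mean in *Kdm3b*+/- mice, beside 8250 of 13652 genes, and their median difference was -0.51 on the log2 scale. *Sema3f*, a repellent that acts through neuropilin 2 (chr9:107681502-107710475), had the smallest p of all guidance genes. It had 3.77 and 3.80 TPM in WT and 1.67 and 2.24 in *Kdm3b*+/- mice, a log2 fold change of -0.70 ± 0.19 and an adjusted p of 0.155, with a larger gap between the genotypes than within either. *Sema3c* (chr5:17574816-17730267) had 3.10 and 4.53 against 2.53 and 2.16 TPM, with a log2 fold change of -0.51 ± 0.21 and an adjusted p of 0.261. *Sema3a* lay between 1.33 and 1.88 TPM and the groups overlapped.

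The class 4 to 7 semaphorins are membrane-bound, and their summed TPM was 148 and 202 in WT and 122 and 149 in *Kdm3b*+/- mice. Of the 12 tested, 8 had a lower and 4 a higher mean, with 5 lower and 1 higher without overlap, where the shares of all genes are 32.0% and 19.2%. The class 6 genes, transmembrane ligands of the A-type plexins, had mixed values. *Sema6c* (chr3:95160420-95174050) had 11.9 and 17.1 TPM in WT and 6.54 and 9.60 in *Kdm3b*+/- mice, and the lowest log2 fold change of the guidance genes, -0.77 ± 0.22 with an adjusted p of 0.174. *Sema6b* (chr17:56123085-56140343) had 18.1 and 26.02 against 10.3 and 16.2 TPM, a log2 fold change of -0.70 ± 0.24 and an adjusted p of 0.212. In both, the lowest WT mouse was above the highest *Kdm3b*+/- mouse. *Sema6a* had 6.29 and 12.6 against 9.19 and 10.5 TPM, both *Kdm3b*+/- values lying between the WT values. *Sema6d* had 23.9 and 29.6 against 25.4 and 29.0 TPM, again with overlap.

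Among the class 4 genes, *Sema4a* (chr3:88435962-88461182), best known from immune cells and the retina, had 6.43 and 6.47 TPM in WT and 3.39 and 5.22 in *Kdm3b*+/- mice, a log2 fold change of -0.51 ± 0.20 and an adjusted p of 0.258. *Sema4f*, the most abundant semaphorin, had 46.1 and 70.5 against 40.4 and 43.2 TPM. Here WT mouse 2 stood apart from the other 3 mice, and the log2 fold change of -0.44 had an adjusted p of 0.297. *Sema5a* was the semaphorin of these classes that was higher without overlap, at 3.78 and 3.65 against 4.48 and 4.52 TPM.

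The 11 semaphorin receptors were all tested and were split, with 6 lower and 5 higher means and a median log2 fold change of -0.01. *Plxnd1*, a receptor known from blood vessels (chr6:115954811-115995005), had 2.82 and 4.51 TPM in WT and 1.83 and 2.46 in *Kdm3b*+/- mice, with a log2 fold change of -0.55 ± 0.23 and an adjusted p of 0.267. *Plxna2*, a class 6 semaphorin receptor known for granule cell migration, had 5.94 and 6.58 against 8.04 and 7.59 TPM, a log2 fold change of 0.28 with an adjusted p of 0.405. *Nrp1*, which binds class 3 semaphorins, had 1.19 and 1.18 against 1.53 and 2.29 TPM, also higher without overlap (adjusted p = 0.356). *Plxnb2*, the most abundant plexin and known for the proliferation and migration of granule cell precursors, had 23.0 and 30.7 against 24.6 and 15.3 TPM and the groups overlapped. *Plxna1* had 11.6 and 14.5 against 10.5 and 10.01 TPM with an adjusted p of 0.368.

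Only 3 of the 7 Slit and Robo genes were tested, and none had an unadjusted p under 0.05. *Slit3* had 8.94 and 11.3 TPM in WT and 9.49 and 11.1 in *Kdm3b*+/- mice. *Robo4*, the vascular Robo receptor, had 2.66 and 4.199 against 1.503 and 2.65 TPM with an adjusted p of 0.316. *Ntng1*, netrin-G1, a GPI-anchored ligand of axonal membranes (chr3:109780050-110143472), was the only guidance gene with higher levels in *Kdm3b*+/- mice at an unadjusted p under 0.05. It had 5.89 and 5.98 TPM in WT and 8.38 and 7.95 in *Kdm3b*+/- mice, so the mice of a genotype lay close together, with a log2 fold change of 0.40 ± 0.16 and an adjusted p of 0.261. *Ntn4*, a secreted netrin of basement membranes, had 34.5 and 55.8 against 30.6 and 33.5 TPM, WT mouse 2 lying far above the other 3 mice (adjusted p = 0.321). *Ntn1* was near the limit at 0.886 to 1.19 TPM.

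Among the netrin receptors, *Unc5a*, a repulsive receptor (chr13:54949411-55006018), had 18.5 and 31.2 TPM in WT and 13.7 and 14.5 in *Kdm3b*+/- mice, a log2 fold change of -0.74 ± 0.22 and an adjusted p of 0.183. The *Kdm3b*+/- mice were close to each other and below both WT mice. *Unc5b* and *Unc5c* lay the other way without overlap, at 16.3 and 19.6 against 20.4 and 21.9 TPM (adjusted p = 0.475) and at 10.9 and 11.9 against 12.5 and 13.3 TPM. *Unc5c* is known from a mutant mouse with a malformed cerebellum. *Neo1*, the Dcc-related receptor neogenin, is named here because of its values. It had 9.40 and 11.1 TPM in WT and 3.60 and 10.8 in *Kdm3b*+/- mice, so *Kdm3b*+/- mouse 1 had 0.333 of the level of *Kdm3b*+/- mouse 2, at a mean read depth of 9.49 and 32.9, and the adjusted p was 0.412.

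**Figure D3:**
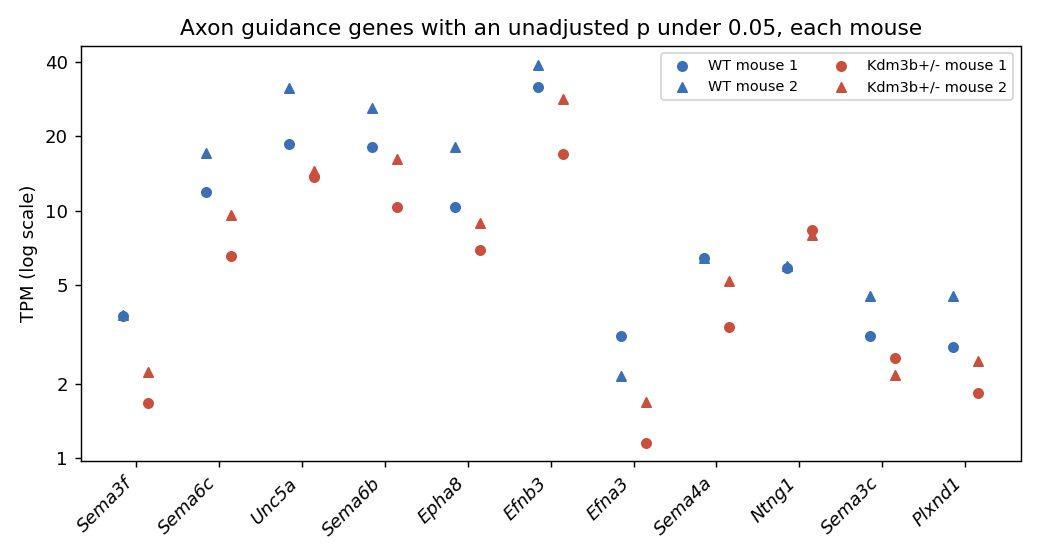
TPM on a log axis of each mouse (blue, WT; red, *Kdm3b*+/-) for the 11 guidance genes with an unadjusted p under 0.05. In all 11 the genotypes do not overlap, and *Ntng1* is the only gene with higher values in *Kdm3b*+/- mice. The genes were picked by p on these same values, so the lack of overlap is no separate evidence.

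With each library left out in turn, the log2 fold changes of these 11 genes kept their sign, but many moved. Where the groups do not overlap, leaving out a library cannot turn the sign. *Ntng1* ran from 0.37 to 0.44, *Sema3f* from -0.84 to -0.56 and *Sema6c* from -1.02 to -0.53. Without WT mouse 2, *Unc5a* was at -0.38, *Epha8* at -0.36, *Sema6b* at -0.45, *Sema3c* at -0.30 and *Plxnd1* at -0.29. Without *Kdm3b*+/- mouse 1, *Sema6b* was at -0.40, *Efnb3* at -0.30 and *Sema4a* at -0.26. Without WT mouse 1, *Epha8* was at -1.10 and *Efna3* at -0.39, and without *Kdm3b*+/- mouse 2, *Efnb3* was at -0.998.

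Read depth was modest for many of these genes. The mean depth over the exons had a median of 8.90 to 14.6 per library across the 55 genes, and its lowest value was 2.001 (*Ephb3*). For 44 of the 55 genes the ratio of coverage to FPKM was within 5% of that of the library in every mouse, and for 11 it was not, *Ntng1* (0.278 to 0.284 of it) and *Sema6d* (0.122 to 0.124) among them. For *Ntng1* the coverage per gigabase of aligned sequence was 0.739 and 0.717 in WT and 1.10 and 1.03 in *Kdm3b*+/- mice. Its groups did not overlap by coverage either, but coverage and TPM come from the same reads and are no separate evidence.

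The differences varied with the GC content and the length of the transcripts. The longest transcripts of the 55 genes had a median GC content of 55.3% and a median length of 5095 bases, against 49.8% and 3364 bases for all genes tested. The 21 genes lower without overlap had a median GC content of 57.3%, the 22 with overlap 54.6% and the 12 higher without overlap 47.5%. The 27 genes above the median GC content of the 55 had a median log2 fold change of -0.37, and the other 28 of 0.01. Across the 55 genes, which share the 4 libraries, GC content and log2 fold change had a Pearson's r of -0.52 and a Spearman's rho of -0.52. Across 12904 genes these were -0.10 and -0.13. For length, on a log2 scale, r and rho were 0.27 and 0.35 in the 55 genes. They had the other sign across the 12904 genes, at -0.22 and -0.23. After a correction of every library for length and GC content, 8 of the 10 genes with lower levels still had an unadjusted p under 0.05 (*Sema3f*, *Sema6c*, *Unc5a*, *Sema6b*, *Epha8*, *Efnb3*, *Sema3c* and *Plxnd1*). *Ntng1* kept its direction at 0.50, and *Ephb1* and *Unc5b* joined it, so that the count was 8 lower and 3 higher (14.5% and 5.45%, against 8.28% and 6.84% of all genes under the same correction). Without overlap there were then 13 lower and 18 higher genes (23.6% and 32.7%) in place of 21 and 12, against 26.1% and 22.7% of all genes so corrected. The median of the 55 was then 0.0016. Under quantile normalization the counts at an unadjusted p under 0.05 were 8 lower and 4 higher (14.5% and 7.27%, against 7.65% and 8.08% of all genes). The part of GC content or length in these differences was not tested.

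**Figure D4:**
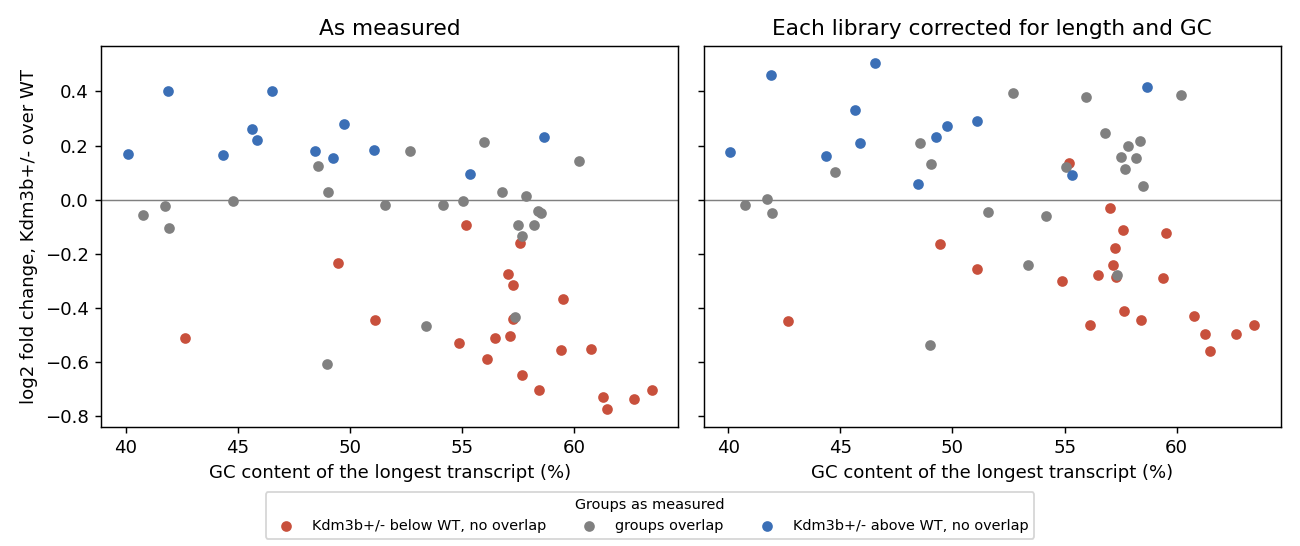
Log2 fold change (*Kdm3b*+/- over WT) of the 55 tested genes against the GC content (%) of the longest transcript, as measured (left) and after each library was corrected for length and GC content (right), coloured by overlap of the genotypes as measured. The 21 genes lower without overlap have a median GC content of 57.3% and the 12 higher ones of 47.5%.

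Promoters of the guidance genes were examined because GC-rich genes lay lower. Of the 55 tested genes, 49 had an entry among the RefSeq promoters of GRCm38.p6, and the 250 bases before the start were searched. The GC box (GGGCGG, on either strand, the letters bound by Sp1 and related factors) was in 37 of 49 guidance promoters (75.5%) and in 59.7% of the promoters of 10711 tested genes. It was in all 8 of the promoters found for the 10 genes with lower levels at an unadjusted p under 0.05. The median GC content of the window was 66.0% in the guidance genes, 65.4% in these 8 and 60.0% in all genes, and the median number of CpG dinucleotides was 18, 19.5 and 16. TATAAA was in 0 of the 49 and in 6.25% of all promoters, and the cAMP response element (TGACGTCA) in 0 of the 49 and 2.80%. The Egr1 site (GCGTGGGCG) was in 2 of the 49 (4.08%) and 1.02%, and the E-box (CACGTG) in 2 of the 49 (4.08%) and 8.53%. A match shows only the letters and not binding.

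The windows of the 3 genes with the lowest log2 fold changes differ widely in these letters, and are shown with that of *Ntng1*, the gene with higher levels. They are chr3:95160170-95160419 on the plus strand for *Sema6c* (1 GC box, 15 CpG), chr13:54949161-54949410 on the plus strand for *Unc5a* (5 GC boxes, 25 CpG), chr4:136956817-136957066 on the minus strand for *Epha8* (6 GC boxes, 46 CpG) and chr3:110143473-110143722 on the minus strand for *Ntng1* (1 GC box, 25 CpG), each 5′ to 3′ and ending at the base before the start. Capitals mark the GC boxes. *Sema6c* and *Ntng1*, with opposite differences, hold 1 each.
Sema6c: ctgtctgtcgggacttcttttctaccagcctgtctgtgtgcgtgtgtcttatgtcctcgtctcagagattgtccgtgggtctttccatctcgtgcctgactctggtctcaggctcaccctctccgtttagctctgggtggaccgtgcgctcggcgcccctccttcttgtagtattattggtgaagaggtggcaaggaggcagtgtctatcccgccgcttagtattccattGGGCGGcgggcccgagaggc
Unc5a: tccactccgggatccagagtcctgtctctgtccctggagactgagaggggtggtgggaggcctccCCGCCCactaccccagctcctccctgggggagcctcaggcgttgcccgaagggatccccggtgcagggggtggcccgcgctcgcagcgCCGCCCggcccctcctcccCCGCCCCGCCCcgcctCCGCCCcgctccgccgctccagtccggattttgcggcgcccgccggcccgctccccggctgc
Epha8: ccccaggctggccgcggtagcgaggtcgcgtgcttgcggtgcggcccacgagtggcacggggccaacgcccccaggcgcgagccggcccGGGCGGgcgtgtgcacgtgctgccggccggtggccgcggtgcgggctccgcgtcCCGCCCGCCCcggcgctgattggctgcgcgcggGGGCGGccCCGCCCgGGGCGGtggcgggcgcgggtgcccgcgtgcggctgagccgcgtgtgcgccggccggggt
Ntng1: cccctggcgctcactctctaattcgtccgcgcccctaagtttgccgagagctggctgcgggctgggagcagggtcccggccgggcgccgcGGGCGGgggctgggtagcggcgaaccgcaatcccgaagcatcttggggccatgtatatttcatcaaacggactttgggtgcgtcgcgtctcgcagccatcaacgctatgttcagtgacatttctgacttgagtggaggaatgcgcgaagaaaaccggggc

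Other genes of the guidance pathway, namely further ligands, coreceptors and the signaling proteins downstream, also held no called gene. Of 82 such genes that the data hold, 74 were tested, 0 were called, 7 (9.46%) had lower and 2 (2.70%) higher levels at an unadjusted p under 0.05, against 11.5% and 5.47% of all genes, and the median log2 fold change was -0.08. The groups did not overlap in 21 lower (28.4%) and 8 higher genes (10.8%), against 32.0% and 19.2% of all genes, and *Ntn5* was listed at 0 in every library. The smallest p belonged to *Ntn3*, a secreted netrin. It had 2.36 and 2.86 TPM in WT and 6.26 and 6.003 in *Kdm3b*+/- mice, a log2 fold change of 0.99 ± 0.18 and an adjusted p of 0.0597, and it was called in 6 of 15 alternatives, with adjusted p values of 0.0176 to 0.446 over them. *Gap43*, a growth cone protein, had 949 and 912 against 1321 and 1240 TPM (adjusted p = 0.131). *Chn2*, a Rac-regulating chimaerin, had 1347 and 1667 against 1077 and 1039 TPM (adjusted p = 0.147). *Plxdc1*, which shares a plexin domain but is no semaphorin receptor, had 17.5 and 13.8 against 8.60 and 9.16 TPM (adjusted p = 0.116), and *Rhod*, a small GTPase that binds plexins, 3.997 and 3.08 against 1.69 and 1.92 TPM (adjusted p = 0.168). In none of these 5 genes did the groups overlap, but they were picked by p on the same values.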

How the data were processed

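Libraries were grouped by the genotype in the labels. The authors trimmed the reads, aligned them with STAR and estimated abundances with StringTie; the versions, the genome build and the annotation are not given in the sources used here. The deposited tables hold the coverage (mean read depth), FPKM and TPM of each gene, scaled by the authors to length and to the library. TPM keeps no read counts, so the count test named in the study's methods was not repeated.

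Entries were summed per gene identifier. Symbols came from a RefSeq table of GRCm38.p6 for 24462 of 24532 identifiers. Gene coordinates are those in the deposited data, and promoter windows are those of RefSeq GRCm38.p6. Of the 73 genes, 62 start within 1 kb of the RefSeq GRCm38 gene. The 13652 genes whose mean TPM was 1 or more were tested on log2(TPM + 1) in R version 4.3.3 with limma version 3.58.1 (lmFit and a trended eBayes) and Benjamini-Hochberg adjustment over all of them. Each mouse is a library. The p-values set a gene's difference against a spread between mice that eBayes moves toward the trend over all tested genes. With 2 against 2, an exact permutation test cannot go below 0.333. Length and GC content are those of the longest GENCODE transcript, and the correction was a loess fit per library (span 0.3). The test was also run on simulated data, with independent normal values and variances drawn from the limma fit. That setting holds no effects shared by the genes of a library, so it cannot show how the test behaves on these libraries.

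The genes and lists were chosen with earlier results of these data known. Named genes are those with an unadjusted p under 0.05, the 2 most abundant of each family and, of the other pathway genes, up to 3 with the smallest p in each direction; others were named after their values were seen. Alternatives were a pseudocount of 0.1, FPKM, quantile normalization, median-ratio scaling, no filter, a filter at a mean TPM of 5, the highest entry per gene, eBayes without trend, robust eBayes (statmod version 1.5.0), the replicate number as a block, the length and GC correction with and without it, other thresholds, and each library left out. Summaries and plots were made in Python 3.11.15 (pandas 2.3.3, NumPy 2.4.6, Matplotlib 3.10.9).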

Additional observations from a re-analysis of the deposited data

How the results depend on the processing

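No guidance gene was called with 2 mice per genotype in the fit reported, and with each library left out the number called was 0 to 4. The 4 arose without *Kdm3b*+/- mouse 2 (*Sema6c*, *Sema6b*, *Efnb3* and *Neo1*), where *Kdm3b*+/- mouse 1 alone stands for its genotype and is assumed to vary like the WT mice. With libraries left out, the genes at an unadjusted p under 0.05 numbered 3 to 14 lower and 0 to 1 higher, the median log2 fold change was -0.20 to -0.028, and 0 to 1 other pathway genes were called (*Ablim1* without *Kdm3b*+/- mouse 2). The lower count at an unadjusted p under 0.05 was 1 with no filter (1.37%, against 5.3% of all genes in that fit). The higher count was 4 under quantile normalization (7.27%, against 8.08% of all genes) and 2 for eBayes without trend (3.64% against 4.93%). It was 3 with the length and GC correction, with or without the block (5.45%, against 6.91% and 6.84%). Genes without overlap numbered 13 lower with that correction, with or without the block (23.6%, against 26.1% of all genes). At a mean TPM of at least 5, 28 guidance genes were tested and the median was -0.21. There 11 were lower and 5 higher without overlap (39.3% and 17.9%, against 33.1% and 19.9% of all genes). At an unadjusted p under 0.05 by limma, 9 were lower and 1 higher (32.1% and 3.57%, against 12.8% and 6.14%). Of the other pathway genes 1 was called under median-ratio scaling, quantile normalization, robust eBayes and the length and GC correction with and without the block.

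Same-numbered mice are different animals and the labels tie no batch or litter to a number. Their deviations from the group means had a correlation of 0.121 over 13652 genes, in 2 pairs of mice, and whether same-numbered mice share a batch was not tested. With the replicate number as a block, 5 guidance genes were called (*Sema6c*, *Sema6b*, *Epha8*, *Efnb3* and *Unc5a*), 17 had lower (30.9%, against 16.2% of all genes) and 1 had higher levels at an unadjusted p under 0.05, 5 other pathway genes were called, and 600 of all genes in place of 63.

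The sign of the log2 fold change turned in 6 named genes. For *Efna1* it became 0.042 with FPKM, 0.049 with median-ratio scaling and 0.084 with quantile normalization, and was -0.12 to 0.083 with libraries left out. For *Epha7* it became 0.034, 0.043 and 0.10 under the same scalings and 0.0016 with the length and GC correction with and without the block, and was -0.11 to 0.064 with libraries left out. *Epha3* had 0.012 under quantile normalization. With libraries left out, *Epha3* ran from -0.25 to 0.048, *Ephb1* from -0.055 to 0.41, *Sema6d* from -0.12 to 0.18 and *Slit3* from -0.13 to 0.18. The cause was not tested.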
